A study of Mus musculus with 54 samples.

Results

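A set of 10 genes of the extracellular proteolysis system was followed, the matrix metalloproteinases Mmp8, Mmp9, Mmp12, Mmp13, Mmp14 and Mmp19, the sheddase Adam8 and the tissue inhibitors Timp1, Timp2 and Timp3, out of the 33280 gene rows in the deposited count tables. They were taken by gene symbol, and all 10 symbols had a row. Matrix metalloproteinases are zinc-dependent enzymes that cut collagens, laminins, proteoglycans, chemokines and cytokines, and most are made as inactive precursors. The tissue inhibitors (TIMPs) block the active site of these enzymes, and TIMP2 also forms a complex with membrane-bound MMP14 that takes part in the activation of MMP2. In brain, this system is known for opening the basement membranes of vessels and of the glia limitans during inflammation.

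The data are bulk RNA-seq of microglia (MG) and of CNS-associated macrophages of the subdural compartment (sdCAMs, that is, perivascular and leptomeningeal macrophages) that were sorted from mouse brain after removal of the choroid plexuses. There were 54 libraries in 18 groups of 3, made from 24 mice. The mice were of 3 lines, namely wild-type (WT) mice, Ccr2-/- mice, which lack the chemokine receptor CCR2 in the germline, and Ccr2CreERT2/CreERT2 R26tdT/tdT reporter mice, which are homozygous for both alleles and express tdTomato (tdT) in cells whose Ccr2 locus was active when tamoxifen (2 mg per dose) was given. WT and Ccr2-/- mice were either untreated and injected with PBS, given vehicle (CTL) and later lipopolysaccharide (LPS), or given BLZ945, an inhibitor of the receptor CSF1R that depletes these macrophages, and later LPS. All reporter mice had BLZ945 and then PBS or LPS, and their sdCAMs were sorted into tdT+ and tdT- cells. PBS or LPS was injected 8 weeks after the end of treatment and cells were collected 12 h later. In WT and Ccr2-/- mice the LPS response sets CTL and LPS against untreated and PBS, so vehicle and LPS change together and cannot be told apart. WT and Ccr2-/- libraries carry the label batch 1 and reporter libraries batch 2, so the reporter line and the batch cannot be told apart either. The authors report that they corrected the WT and Ccr2-/- data for batch with ComBat-seq, without naming the batches. No such correction was made here, so batches within these 2 lines are not accounted for. The age of the mice was not given in the labels.

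Library totals were 1705930 to 7699790 counts in WT sdCAMs, 7497764 to 11330781 counts in WT MG and in both Ccr2-/- populations, and 2060240 to 9850283 counts in reporter sdCAMs. Microglial markers (P2ry12, Tmem119 and 4 others) summed to 25700 to 41740 counts per 1000000 library counts (CPM) in untreated WT and Ccr2-/- MG, and the 7 sdCAM markers (Mrc1, Cd163 and 5 others) to at most 28.82 CPM in any MG library. In sdCAM libraries the sdCAM markers summed to at least 905.1 CPM, the lowest value being that of the tdT+ LPS library of mouse 5. For the Ccr2-/- LPS libraries title and cell type label contradict each other, and the marker sums followed the cell type label, which was used. Ccr2 itself was 17.05 to 51.01 CPM in untreated WT sdCAMs and 2.326 to 5.204 CPM in untreated Ccr2-/- sdCAMs. In 4 WT sdCAM libraries (all 3 of CTL and LPS, 1 of BLZ945 and LPS) and in 1 tdT- library the 50 most abundant genes took 55.3% to 63.5% of the counts, against 20.1% to 26.2% in the other 5 WT sdCAM libraries. These 4 WT sdCAM libraries carry the label IEG_correction, whose meaning is not given, as do the untreated WT sdCAM libraries of mice 9 and 14 and no other library. Levels are given as CPM after TMM scaling, and scaling to library totals alone is given where it changes a call on a member. The tdT+ LPS library of mouse 5 had 7994 CPM of microglial markers, against 481.8 and 645.6 CPM in the other 2 tdT+ LPS libraries and 9080 to 11450 CPM in reporter MG after LPS. The sdCAM markers of the other 2 tdT+ LPS libraries summed to 5755 and 6559 CPM. A tdT- and a tdT+ LPS library carry conflicting index labels, and with them as named the sex-linked transcripts disagreed within 2 of 24 mice and, once they were exchanged, within 0.

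Untreated cells had a simple repertoire, with Timp2 as the main transcript in both cell types. On a scale of CPM per kb of exon, which allows genes to be compared, Timp2 was first of the 10 members with a level of 174 ± 5.4 CPM per kb in WT MG and 138 ± 20 CPM per kb in WT sdCAMs (SD, n = 3 each, as for all values below). Its level in Ccr2-/- mice was 217 ± 4.7 CPM per kb in MG and 239 ± 22 CPM per kb in sdCAMs. Mmp14 was second in MG, at 7.05 ± 0.61 CPM per kb in WT and 9.49 ± 1.8 CPM per kb in Ccr2-/- mice. In sdCAMs the second place went to Mmp9, at 15.8 ± 3.2 CPM per kb in WT and 31.0 ± 8.2 CPM per kb in Ccr2-/- mice. The next members in untreated sdCAMs, Mmp14, Adam8 and Mmp13, had means of 2.47 to 5.90 CPM per kb in both genotypes, and within each genotype their spreads overlapped. Timp1 had no count in any of the 12 untreated WT and Ccr2-/- libraries.

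Set against MG, untreated sdCAMs had higher levels of Mmp9, Mmp13 and Adam8 in both genotypes, and Timp2 did not pass the test in either. A gene was called where its adjusted p was under 0.05 and its level differed by over 1 on the log2 scale. Of 9 members that passed the filter on low counts in WT, 3 were higher and 1 lower in sdCAMs, beside 17.1% of all genes called (11.9% higher and 5.2% lower). In Ccr2-/- mice all 10 passed, with 4 higher and 1 lower, beside 15% of all genes called (8.53% higher and 6.43% lower). Mmp9, the gelatinase that cuts type IV collagen of basement membranes, was 61.3, 63.5 and 42.8 CPM in the 3 untreated WT sdCAM libraries and had no count in the 3 MG libraries of the same mice. That is at least 188-fold higher in sdCAMs, taking 3 counts per library as the limit in MG (edgeR quasi-likelihood test, adjusted p = 9.6e-06). Mmp13, a collagenase, was 11.0, 2.63 and 6.23 CPM in untreated WT sdCAMs and had no count in MG, at least 22.2-fold higher (adjusted p = 0.0157, and 0.056 to 0.060 when any 1 MG library was left out). Adam8, a membrane-bound sheddase of leukocytes, was 17.1, 27.1 and 8.96 CPM in WT sdCAMs and 0.611, 1.17 and 1.06 CPM in WT MG. Mmp9 and Mmp13 passed the filter through sdCAM libraries alone and so had to differ, which makes their calls a description. None of these 3 genes overlapped between the cell types, and Adam8 differed by a log2 fold change of 4.19 (SE 0.67, adjusted p = 0.00050).

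The same 3 enzymes were called higher in untreated Ccr2-/- sdCAMs. Mmp9 was 112, 138 and 79.9 CPM there and at most 0.795 CPM in Ccr2-/- MG, and Mmp13 (10.4 to 22.7 CPM) was at least 52.8-fold higher than in MG, where it had no count. Adam8 differed by a log2 fold change of 5.60 (SE 0.87, adjusted p = 8.0e-05). Timp3, an inhibitor that stays bound to the matrix, was a low transcript and was 2.09 to 10.4 CPM in Ccr2-/- sdCAMs without a count in MG, at least 21.2-fold higher. Mmp9, Mmp13 and Timp3 passed the filter in Ccr2-/- mice through sdCAM libraries alone and so had to differ, which makes their calls a description. The gene called lower in sdCAMs was Mmp19 in WT, a secreted enzyme that cuts proteins of basement membranes, at 1.81 to 2.34 CPM in MG and no count in sdCAMs (at least 1.68-fold lower). In Ccr2-/- mice it was Mmp12, the macrophage elastase, at 0.658 to 4.20 CPM in MG and no count in sdCAMs (at least 6.43-fold lower, adjusted p = 0.0146, and 0.051 without the MG library of mouse 3m). Whether the genotypes differ in these 2 genes was not tested. Mmp14 and Timp2 did not pass the test between untreated cell types in either genotype, with log2 fold changes of -0.42 (SE 0.41) and -0.31 (SE 0.48) in WT and -0.69 (SE 0.29) and 0.14 (SE 0.16) in Ccr2-/- mice. All 3 Timp2 values of WT sdCAMs still lay below the 3 of WT MG, as did those of Mmp14 in Ccr2-/- mice. Untreated sdCAM libraries held microglial markers at sums of 4432 to 9722 CPM in WT and 4038 to 5630 CPM in Ccr2-/- mice, and 558.7 to 1336 and 950.8 to 1271 CPM after LPS, and their part in these values was not tested. In these bulk libraries fewer cells that express a gene and less RNA per cell cannot be told apart.

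**Figure D1:**
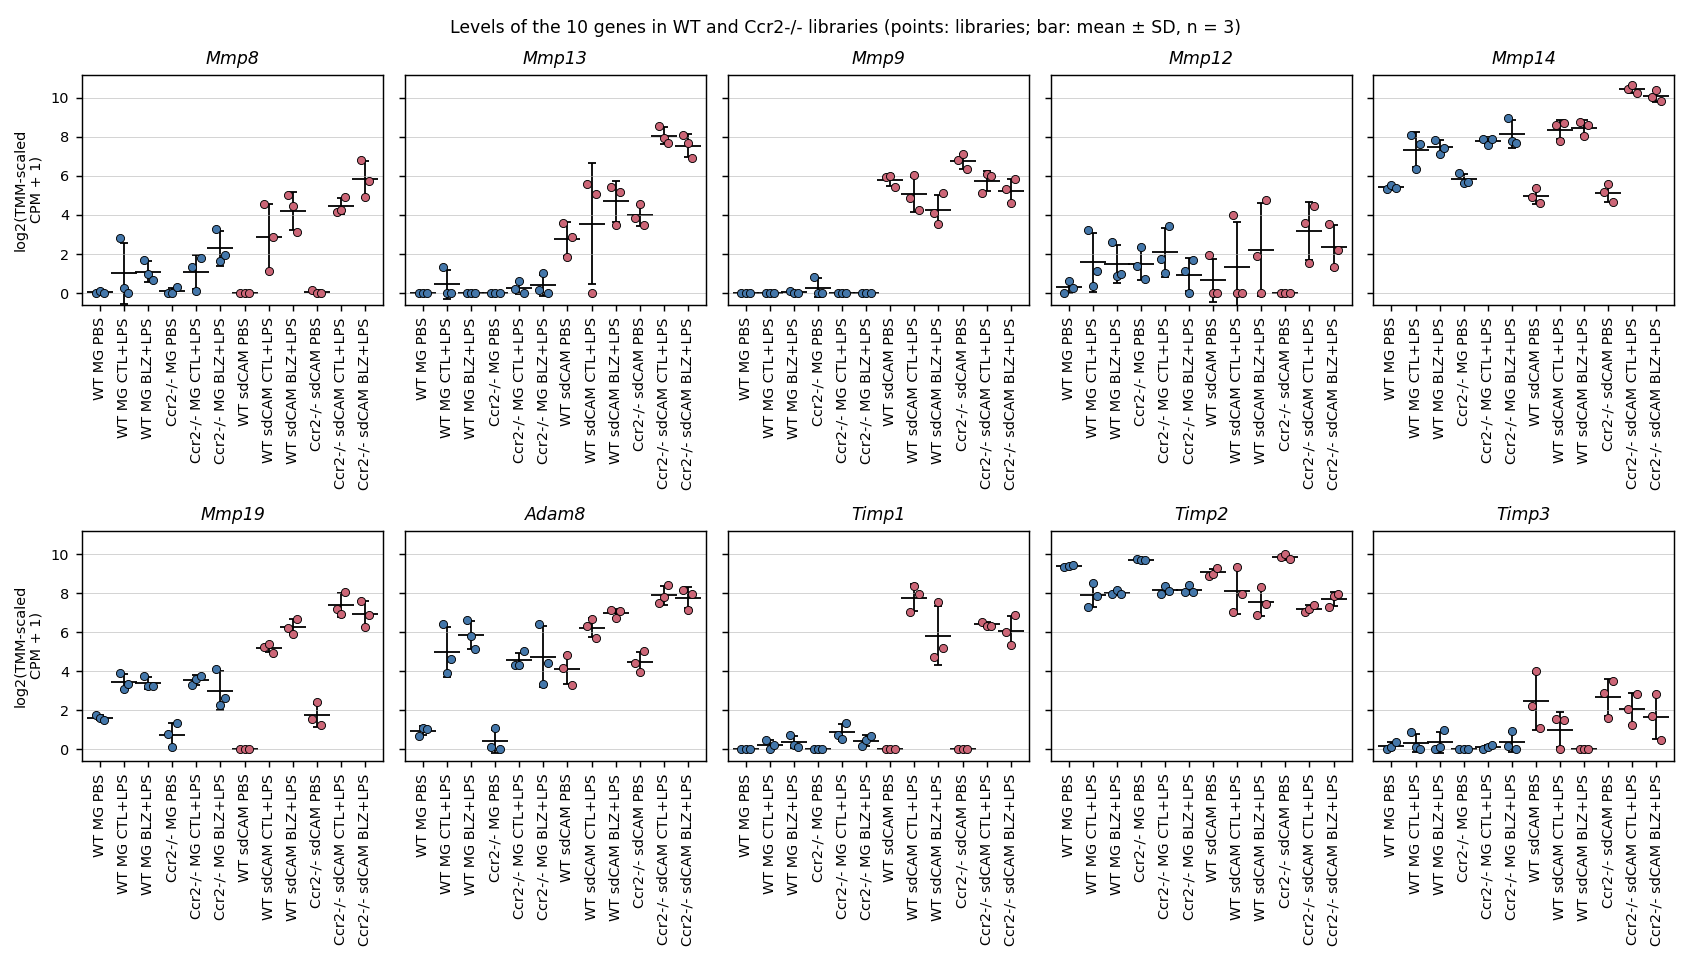
Level of each of the 10 genes in each library of WT and Ccr2-/- mice, as TMM-scaled CPM plus 1 on a log axis. Points are single libraries, 3 per group, and the short bars are group means, with MG and sdCAMs side by side for untreated and PBS, CTL and LPS, and BLZ945 and LPS. Timp1 reaches 77.7 to 333 CPM in sdCAMs after CTL and LPS and at most 1.56 CPM in MG. Mmp14 lies higher after LPS in both cell types, and Timp2 lies lower in MG and in Ccr2-/- sdCAMs, with overlap in WT sdCAMs.

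After LPS, sdCAMs made Mmp14, Mmp19 and Timp1 at much higher levels than before, in both genotypes. In WT sdCAMs 8 of the 10 members passed the filter and 5 were called, all higher (Mmp8, Mmp14, Mmp19, Adam8 and Timp1), beside 6.32% of all genes tested (3.7% higher and 2.62% lower). Of these calls over all genes, 389 were higher and 275 lower, and with scaling to library totals 311 were higher and 2575 lower, with the median of all genes at -1.55 instead of -0.08 on the log2 scale. In Ccr2-/- sdCAMs all 10 passed, 7 were higher (the same 5 with Mmp12 and Mmp13) and 2 lower (Mmp9 and Timp2), beside 21.5% of all genes (10.9% higher and 10.6% lower). The median log2 fold change of the members tested, with genes lacking counts in a group set at their bound, was 2.65 in WT and 4.60 in Ccr2-/- sdCAMs, beside -0.08 and -0.05 over all genes tested. Members that passed the filter only through their level after LPS had to differ. These were Mmp8, Mmp19 and Timp1 in WT sdCAMs, Mmp8, Mmp12 and Timp1 in Ccr2-/- sdCAMs, and Mmp8 in MG of both genotypes. Their LPS calls and adjusted p, here and below, and their part in these counts and medians are a description. In MG 6 members passed in each genotype, 4 were higher (Mmp8, Mmp14, Mmp19 and Adam8) and Timp2 was lower, beside 16.7% of all genes tested in WT (9.08% higher and 7.65% lower) and 19.4% in Ccr2-/- mice (10.5% higher and 8.89% lower).

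Sequences just upstream of the start are shown for Mmp13, Mmp14 and Timp1, the 3 members with the highest levels per kb in Ccr2-/- sdCAMs after LPS. They come from RefSeq on GRCm38.p6, run 5′ to 3′ on the coding strand, and end at the base before the RefSeq start. Of the 10 members, 8 had an entry in that promoter table. Each is 250 bases long. Capitals mark the AP-1 motif TGANTCA, searched on both strands together with the NF-kB consensus motif of 10 bases.
Mmp13 (chr9:7272264-7272513, plus strand): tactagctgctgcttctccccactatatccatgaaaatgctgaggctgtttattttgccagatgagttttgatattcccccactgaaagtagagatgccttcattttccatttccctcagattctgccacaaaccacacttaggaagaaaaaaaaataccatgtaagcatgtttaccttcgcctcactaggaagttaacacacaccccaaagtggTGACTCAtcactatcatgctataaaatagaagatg
Mmp14 (chr14:54431348-54431597, plus strand): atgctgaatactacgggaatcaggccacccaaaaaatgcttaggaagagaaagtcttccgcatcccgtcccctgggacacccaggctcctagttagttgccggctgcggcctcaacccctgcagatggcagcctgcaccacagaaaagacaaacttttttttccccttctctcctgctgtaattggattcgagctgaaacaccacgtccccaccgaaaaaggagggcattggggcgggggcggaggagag
Timp1 (chrX:20869916-20870165, plus strand): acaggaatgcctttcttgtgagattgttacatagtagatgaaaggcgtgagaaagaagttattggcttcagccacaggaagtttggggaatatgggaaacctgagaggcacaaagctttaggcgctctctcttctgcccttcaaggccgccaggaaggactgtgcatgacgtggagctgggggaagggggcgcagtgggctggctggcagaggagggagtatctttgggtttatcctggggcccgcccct
The Mmp13 window held 1 AP-1 match that begins 35 bases before the start, and neither motif was found in the Mmp14 or Timp1 window. Among 32851 promoter windows of the same length, 6.75% held the AP-1 motif and 3.9% the NF-kB motif. Besides Mmp13, the second of 2 Mmp12 windows held an AP-1 match, and no other member window held either motif. A match describes these letters only and is not a site of binding.

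The collagenases were rare outside sdCAMs. Mmp8, known as the neutrophil collagenase, had no count in untreated WT sdCAMs and was 22.6, 1.17 and 6.45 CPM after LPS, at least 8.18-fold higher (adjusted p = 0.0347). This call rested on few counts and was lost when any 1 of 5 of the 6 libraries was left out, with adjusted p between 0.081 and 0.10. In Ccr2-/- sdCAMs Mmp8 had at most 1 count before LPS and was 16.6, 18.3 and 28.9 CPM after it, at least 63.6-fold higher (adjusted p = 7.1e-06). In MG of both genotypes it stayed at most 6.05 CPM after CTL and LPS and at most 8.80 CPM after BLZ945 and LPS. Its calls there (adjusted p = 0.0413 in WT, 0.0292 in Ccr2-/- mice) came with overlapping groups, and each was lost in 4 of the 6 fits that left out 1 library, with adjusted p of 0.10 to 0.69 in WT and 0.063 to 0.11 in Ccr2-/- mice. The WT value fell from a log2 fold change of 5.57 to 1.20 without the LPS library of mouse 1.

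Because Mmp8 and Mmp9 are also products of neutrophils, the 11 neutrophil markers were read beside them. Ly6g was at 0 in every library and Ltf, Retnlg, Mpo and Elane had at most 5 counts in any WT or Ccr2-/- sdCAM library that was untreated or had CTL and LPS. S100a8 was at 358.9 to 3249 CPM in WT sdCAMs after LPS against at most 34.5 CPM before it, and at 59.95 to 93.35 CPM in Ccr2-/- sdCAMs after LPS. Csf3r was present in every sdCAM group, at 72.24 to 93.62 CPM in WT and 241.2 to 305.6 CPM in Ccr2-/- sdCAMs after LPS, against 74.28 to 150.2 and 103 to 129.2 CPM before it. The summed list went from 110.8 to 231.7 CPM before LPS to 432.3 to 3384 CPM after it in WT sdCAMs, and from 104.4 to 132.2 to 316.3 to 367.4 CPM in Ccr2-/- sdCAMs. The part of these transcripts in the Mmp8 values was not tested. The 5 monocyte markers summed to 12.08 to 90.29 CPM in WT and 95.71 to 190.1 CPM in Ccr2-/- sdCAMs after LPS, against 28.82 to 52.18 and 2.442 to 5.204 CPM before it, with Chil3 at 0 in all 12 of these libraries, and their part was not tested either.

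With edgeR, Mmp13 was called higher after LPS in Ccr2-/- sdCAMs alone. It was 13.6, 22.7 and 10.4 CPM in untreated Ccr2-/- sdCAMs and 371, 242 and 207 CPM after LPS. The groups did not overlap and differed by a log2 fold change of 4.14 (SE 0.39, adjusted p = 6.0e-06). In WT sdCAMs it was 11.0, 2.63 and 6.23 CPM before and 47.2, 0 and 32.5 CPM after LPS, so 2 LPS libraries lay above all untreated ones. The library without a count, from mouse 4, was shallow, and 3 counts in it correspond to 3.50 CPM, so that it cannot be placed below the lowest untreated one. That comparison did not pass the test (log2 fold change 2.14, SE 1.13, adjusted p = 0.27). In MG Mmp13 had at most 18 counts in any WT or Ccr2-/- library, and 1 WT MG library of CTL and LPS alone held more than 11.

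Mmp9 was called lower after LPS in Ccr2-/- sdCAMs and did not pass the test in WT sdCAMs. In WT sdCAMs it was 61.3, 63.5 and 42.8 CPM before and 28.3, 64.1 and 18.4 CPM after LPS, with overlapping groups (log2 fold change -0.49, SE 0.59, adjusted p = 0.65). Ccr2-/- sdCAMs had 112, 138 and 79.9 CPM before and 34.0, 67.3 and 63.3 CPM after, and all LPS libraries lay below all untreated ones. The log2 fold change was -1.004 (SE 0.34, adjusted p = 0.0435), close to both limits of the call, and the call was lost in 5 of the 6 fits that left out 1 library. Mmp12 had no count in untreated Ccr2-/- sdCAMs and was 10.9, 1.90 and 20.7 CPM after LPS, at least 33.5-fold higher (adjusted p = 0.0015). In WT sdCAMs Mmp12 was too low to be tested, with counts in 1 of 3 untreated and 1 of 3 LPS libraries. In MG it reached 8.45 CPM in WT and 9.99 CPM in Ccr2-/- mice after LPS and did not pass the test in either (adjusted p = 0.056 and 0.47). The WT MG value of 3.63 on the log2 scale was called with DESeq2 (3.69, adjusted p = 0.0094), without a filter (adjusted p = 0.00021), with scaling to library totals (adjusted p = 0.0496) and without the LPS library of mouse 4 (adjusted p = 0.012).

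Mmp14, the membrane-type enzyme that cuts collagen at the cell surface, was called higher after LPS in all 4 populations. Untreated WT MG had 38.7, 45.9 and 41.4 CPM and WT MG after LPS had 274, 80.5 and 195 CPM. All LPS libraries lay above all untreated ones, with a log2 fold change of 2.13 (SE 0.35, adjusted p = 0.0010). WT sdCAMs went from 28.8, 41.2 and 23.8 CPM to 385, 224 and 425 CPM, again without overlap (log2 fold change 3.62, SE 0.52, adjusted p = 0.0055, and 2.12 with an adjusted p of 0.038 when scaled to library totals). In Ccr2-/- MG the levels were 69.2, 49.1 and 51.4 CPM before and 239, 194 and 237 CPM after LPS (2.00, SE 0.28, adjusted p = 9.4e-05).

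Ccr2-/- sdCAMs had the highest Mmp14 level of the 18 groups, with 35.1, 46.3 and 24.1 CPM before and 1391, 1612 and 1213 CPM after LPS. The log2 fold change was 5.32 (SE 0.27, adjusted p = 4.2e-08). The response of Ccr2-/- sdCAMs exceeded that of Ccr2-/- MG by 3.35 on the log2 scale (SE 0.41, adjusted p = 2.7e-05), and leaving out any 1 library kept the call. Of the members, 3 of 10 passed this test of the difference between cell types in Ccr2-/- mice (Mmp12, Mmp14 and Timp2), where 6.88% of all genes did. In WT mice the difference for Mmp14 was 1.39 (SE 0.58, adjusted p = 0.21), and it was -0.09 when scaled to library totals, so its direction there depends on the scaling.

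Mmp19 was called higher after LPS in all 4 populations. It was absent from untreated WT sdCAMs, with 0 counts in 3 libraries, and reached 37.4, 40.8 and 29.8 CPM after LPS, at least 29.2-fold higher (adjusted p = 0.0016). WT MG rose from 2.34, 2.07 and 1.81 CPM to 14.0, 7.45 and 9.25 CPM (log2 fold change 2.30, SE 0.35, adjusted p = 0.00055). In the WT test of the difference between cell types Mmp19 was the 1 member of 9 that passed (adjusted p = 0.0015), where 1.32% of all genes did, and it passed in each of 18 other fits that were run. The size of that difference depends on the value the fit assigns to libraries without counts and is given with the other differences at the end.

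In Ccr2-/- mice Mmp19 was 1.99, 4.30 and 1.36 CPM in sdCAMs before and 145, 121 and 269 CPM after LPS (6.12, SE 0.51, adjusted p = 2.3e-06). Ccr2-/- MG went from 0.696, 0.0857 and 1.54 CPM to 8.75, 11.4 and 12.3 CPM (3.86, SE 0.73, adjusted p = 0.00094). The difference between the 2 responses was 2.28 (SE 0.99, adjusted p = 0.19) and did not pass. Mmp19 shares 789 exon bases with Tmem198b on the opposite strand, and the strand setting of the read counting was not given in the sources used here. Tmem198b was 0 to 3.65 CPM in untreated and 10.1 to 16.2 CPM in LPS-treated WT sdCAMs and 32.2 to 44.6 CPM in LPS-treated Ccr2-/- sdCAMs, so reads of the pair cannot be told apart.

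Adam8 started from different levels in the cell types and rose in both. WT MG went from 0.611, 1.17 and 1.06 CPM to 83.5, 14.0 and 24.0 CPM, with a log2 fold change of 5.40 (SE 0.74, adjusted p = 0.00028). WT sdCAMs went from 17.1, 27.1 and 8.96 CPM to 79.3, 101 and 50.98 CPM, with 2.26 (SE 0.48, adjusted p = 0.0213). All LPS libraries lay above the untreated ones in both. The WT sdCAM call was lost without any 1 of 5 of the 6 libraries (adjusted p 0.053 to 0.091) and when scaled to library totals (0.65, adjusted p = 0.51). Ccr2-/- MG rose from at most 1.11 CPM to 19.0, 19.3 and 31.4 CPM (5.69, SE 0.92) and Ccr2-/- sdCAMs from 20.3, 14.8 and 31.8 CPM to 179, 220 and 345 CPM (3.47, SE 0.35, adjusted p = 1.3e-05). The WT sdCAM response was below the MG response by 3.24 on the log2 scale (SE 0.85), which missed the threshold with edgeR (adjusted p = 0.065) and passed it with DESeq2 (-3.08, adjusted p = 0.016) and with scaling to library totals (-4.82, adjusted p = 0.0053).

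Timp1, a secreted inhibitor of most soluble metalloproteinases, went from nothing to one of the main transcripts of the set in sdCAMs. It had no count in any untreated WT or Ccr2-/- library of either cell type. After LPS it was 129, 333 and 244 CPM in WT sdCAMs and 92.8, 77.7 and 80.4 CPM in Ccr2-/- sdCAMs. These are at least 191-fold (adjusted p = 0.0038) and at least 250-fold (adjusted p = 1.1e-06) above a limit of 3 counts per library, and the limit is higher in the shallower WT libraries. MG had at most 0.414 CPM in WT and at most 1.56 CPM in Ccr2-/- mice after CTL and LPS, and at most 0.637 CPM after BLZ945 and LPS. After CTL and LPS sdCAMs exceeded MG by a log2 fold change of 10.13 (SE 1.1, adjusted p = 6.5e-05) in WT and 6.54 (SE 0.53, adjusted p = 2.2e-07) in Ccr2-/- mice. Timp1 passed the filter of these fits through sdCAM libraries alone, so both calls are a description. The 6 fibroblast markers summed to 24.47 to 49.08 CPM in WT and 21.44 to 32.71 CPM in Ccr2-/- sdCAMs after LPS, against 16.64 to 56.85 and 4.977 to 25 CPM before it. Choroid plexus markers were 14.13 to 1891 CPM in WT sdCAMs after LPS and at most 2.215 CPM in Ccr2-/- ones, and the part of either list was not tested. Since both untreated cell types lacked counts, a difference in response cannot be estimated, and the edgeR test gives no usable value. DESeq2 called it in both genotypes (adjusted p = 0.0045 and 0.0053), but from the same empty groups, so no conclusion is drawn from these calls.

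Timp2 moved the other way. In WT MG it was 661, 672 and 702 CPM before and 158, 368 and 230 CPM after LPS, with no overlap (log2 fold change -1.42, SE 0.24, adjusted p = 0.0012). Ccr2-/- MG went from 866, 835 and 834 CPM to 252, 326 and 275 CPM (-1.55, SE 0.14, adjusted p = 2.8e-06). Ccr2-/- sdCAMs went from 929, 1018 and 849 CPM to 129, 147 and 165 CPM, the lowest of the 4 populations (-2.67, SE 0.19, adjusted p = 6.5e-07). Their fall was steeper than that of MG by 1.08 on the log2 scale (-1.08, SE 0.23, adjusted p = 0.0058), and without the sdCAM library of mouse V1m the value was -0.98, just under the fold limit. In WT sdCAMs the levels were 479, 508 and 627 CPM before and 129, 660 and 249 CPM after LPS, so 1 library lay above and 2 lay below all untreated ones, and the test was not passed (-0.51, SE 0.65, adjusted p = 0.67). Scaled to library totals it was called at -1.997 (adjusted p = 0.049). Timp3 was at most 15.3 CPM in any WT or Ccr2-/- library, was tested in Ccr2-/- sdCAMs alone and did not pass there (-0.79, SE 0.99, adjusted p = 0.61). It shares 1733 exon bases with Syn3 on the opposite strand, and Syn3 was at most 1.04 CPM in these libraries.

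**Figure D2:**
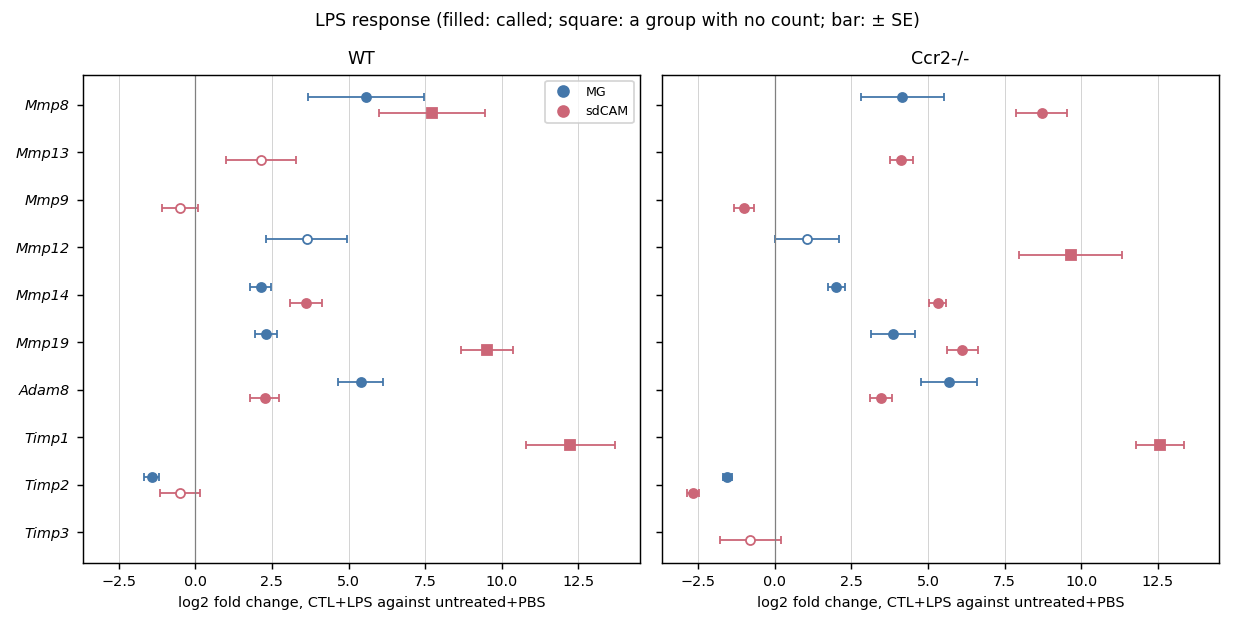
Log2 fold change of each tested gene after CTL and LPS against untreated and PBS in WT MG, WT sdCAMs, Ccr2-/- MG and Ccr2-/- sdCAMs, with bars of 1 SE either side and filled points for calls. Mmp14, Mmp19 and Adam8 lie above 0 in all 4 populations and Timp2 lies below 0, with the smallest Timp2 value of -0.51 in WT sdCAMs. Values of genes without counts before LPS depend on the value the fit assigns to an empty library.

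The ratio of Mmp14 to Timp2 counts within a library is free of any scaling between libraries, and was added after the values had been seen. Among the 7 groups without LPS the group means lay between 0.037 and 0.078 Mmp14 counts per Timp2 count. After LPS the ratio was 1.74, 0.219 and 0.849 in WT MG and 2.99, 0.339 and 1.71 in WT sdCAMs, with mouse 4 lowest in both cell types. Ccr2-/- MG had 0.946, 0.595 and 0.864, and Ccr2-/- sdCAMs 10.8, 11.0 and 7.35. Ccr2-/- sdCAMs were thus the group with the highest mean ratio of the 18, at 9.71 ± 2.05, and no LPS library of any group fell into the range of the groups without LPS.

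**Figure D3:**
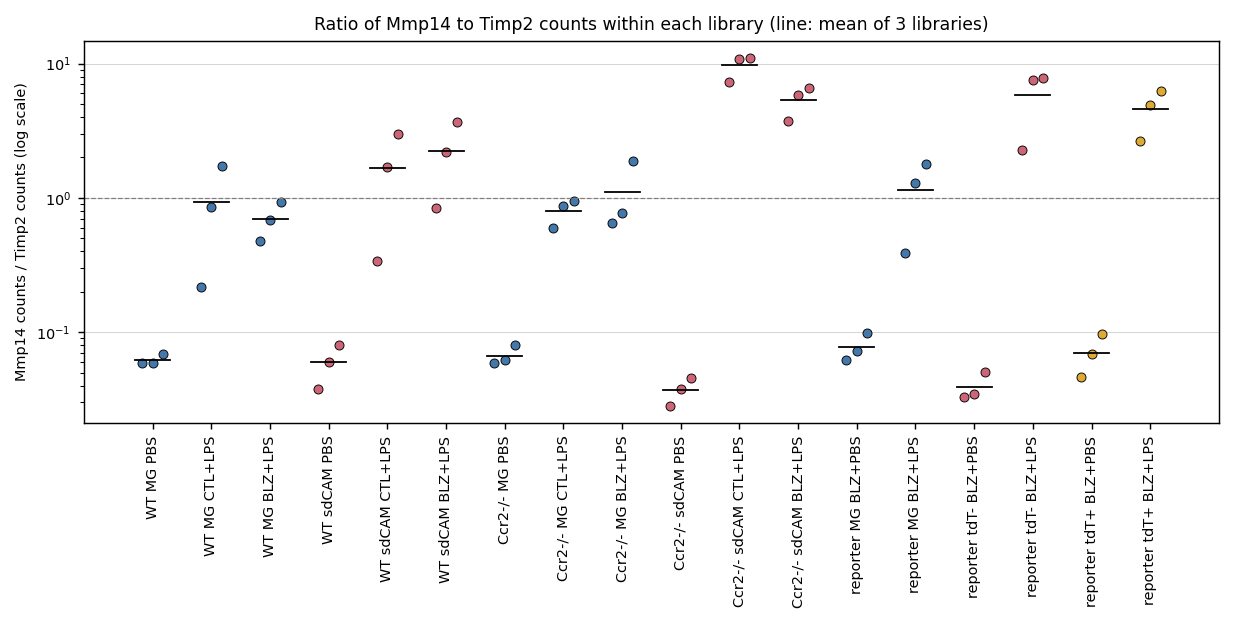
Mmp14 counts divided by Timp2 counts in each of the 54 libraries, on a log axis, by group. Points are libraries and short bars are group means. Groups without LPS have means of 0.037 to 0.078, and groups with LPS run from 0.697 in WT MG after BLZ945 to 9.71 in Ccr2-/- sdCAMs after CTL.

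With LPS the order of levels per kb changed. In WT sdCAMs Timp1 came first at 265 ± 116 CPM per kb, followed by Timp2 at 88.8 ± 71 and Mmp14 at 57.8 ± 18 CPM per kb, and the spreads of Timp2 and Mmp14 overlapped. First in Ccr2-/- sdCAMs was Mmp14 at 236 ± 34 CPM per kb, then Mmp13 at 102 ± 32 and Timp1 at 94.2 ± 9.1 CPM per kb, which did not differ beyond their spread. In Ccr2-/- MG Timp2 (73.0 ± 9.6 CPM per kb) still stood before Mmp14 (37.5 ± 4.3 CPM per kb). In WT MG the means were 64.7 ± 27 CPM per kb for Timp2 and 30.8 ± 16 CPM per kb for Mmp14, and their spreads overlapped.

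Direct comparison of the cell types after CTL and LPS gave 4 members higher in WT sdCAMs of 9 tested (Mmp9, Mmp13, Mmp19 and Timp1), beside 35.4% of all genes tested (19.1% higher and 16.3% lower). For Mmp19 the log2 fold change of 1.86 (SE 0.41, adjusted p = 0.0028) became 0.04 (adjusted p = 0.97) when scaled to library totals. Mmp9, Mmp13 and Timp1 passed the filter through sdCAM libraries alone, so their calls are a description. Mmp13 was called in WT with overlapping groups. With the label IEG_correction as covariate, neither Mmp13 (5.96, adjusted p = 0.11) nor Mmp19 (2.36, adjusted p = 0.059) was called. For Mmp14 the log2 fold change was 0.97 (SE 0.41, adjusted p = 0.072), which was called with the mouse kept as a block (1.09, adjusted p = 0.029) and with DESeq2 (1.23, adjusted p = 0.0087). The Ccr2-/- libraries gave 8 of 10 members higher in sdCAMs, beside 18.4% of all genes called (9.29% higher and 9.08% lower). Of these members, Mmp9, Mmp13, Timp1 and Timp3 passed the filter through sdCAM libraries alone, so their calls are a description. Mmp14 led in level there (2.66, SE 0.30, adjusted p = 1.4e-06), Mmp19 differed by 4.05 (SE 0.56) and Mmp13 by 10.20 (SE 0.71). Timp2 was lower in Ccr2-/- sdCAMs by 0.94 on the log2 scale (-0.94, SE 0.17, adjusted p = 0.00025), within the fold limit, and Mmp12 did not pass (1.33, SE 1.1). Scaled to library totals Timp2 was called lower in sdCAMs in both genotypes, at -1.22 (adjusted p = 2.8e-05) in Ccr2-/- mice and at -1.33 (adjusted p = 0.026) in WT, where the value after TMM scaling was 0.52 and so of the other sign.

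Repopulation after BLZ945 made no called difference to any member. Against CTL, all after LPS, 0 members were called in WT MG (0.0763% of all genes called), WT sdCAMs (0%), Ccr2-/- MG (0.0173%) and Ccr2-/- sdCAMs (0%). With edgeR 9, 0, 2 and 0 genes were called in these 4 comparisons, and 776, 758, 769 and 998 had an unadjusted p under 0.05. Mmp8 in Ccr2-/- sdCAMs was 111, 29.4 and 51.8 CPM after BLZ945 against 16.6, 18.3 and 28.9 CPM after CTL, without overlap, at a log2 fold change of 1.57 (SE 0.45, unadjusted p = 0.0042, adjusted p = 0.38). Neutrophil markers summed to 261.3 to 480 CPM in these BLZ945 libraries, with 9 of 11 detected, and to 316.3 to 367.4 CPM after CTL, with 8 detected. Their part in this Mmp8 difference was not tested. In WT sdCAMs Mmp19 was 73.1, 60.1 and 103 CPM against 37.4, 40.8 and 29.8 CPM, also without overlap (1.06, SE 0.47, adjusted p = 0.69). Timp1 there was 25.3, 186 and 35.7 CPM against 129, 333 and 244 CPM (-1.58, SE 0.77, adjusted p = 0.71), and without the BLZ945 library of mouse 12, one of the libraries in which few genes took most counts, it was called at -3.03 (adjusted p = 0.014).

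**Figure D4:**
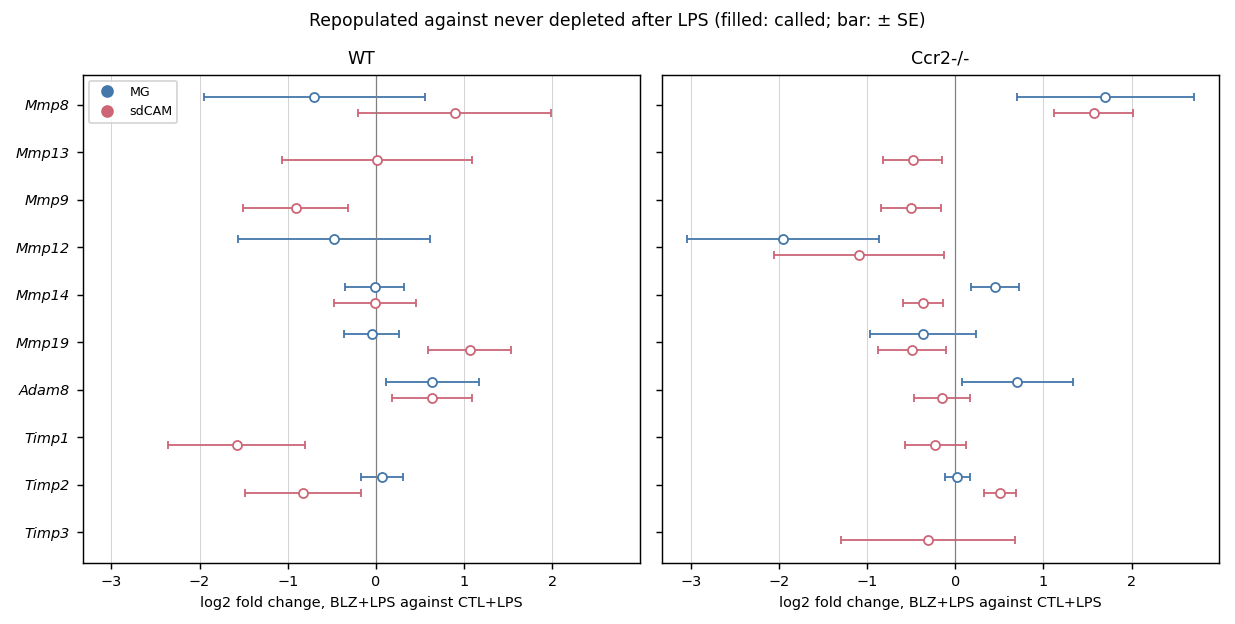
Log2 fold change of each tested gene in BLZ945 against CTL, all after LPS, in the 4 WT and Ccr2-/- populations, with bars of 1 SE either side. All points are open, since none was called, and the widest departures from 0 are Mmp12 in Ccr2-/- MG at -1.955, Mmp8 in Ccr2-/- MG at 1.70 and Timp1 in WT sdCAMs at -1.58.

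The reporter line allowed LPS to be set against PBS with BLZ945 on both sides. In its MG 4 of 10 members were higher (Mmp12, Mmp14, Mmp19 and Adam8) and Timp2 was lower, beside 5.36% of all genes called (3.36% higher and 1.99% lower). Mmp14 was 55.8, 63.1 and 89.7 CPM after PBS and 164, 275 and 221 CPM after LPS (log2 fold change 1.65, SE 0.38, adjusted p = 0.0248). Timp2 was 765, 1016 and 913 CPM after PBS and 422, 155 and 172 CPM after LPS (-1.86, SE 0.41, adjusted p = 0.0195). Both were without overlap, and when 1 library was dropped between 1 and 4 members were called, with 1 left (Mmp19) without the LPS library of mouse 5 and likewise without that of mouse 7. Mmp19 had no count after PBS and was 3.51, 4.79 and 8.16 CPM after LPS, at least 19.2-fold higher (adjusted p = 0.0045). Mmp12 had no count after PBS either and held 37, 14 and 7 counts after LPS. The Mmp12 call was lost in every fit that left out 1 library (adjusted p 0.065 to 0.095). That on Adam8 was lost without any 1 LPS library and without the PBS library of mouse 174 (adjusted p 0.055 to 0.11). The PBS MG library of mouse 175 had 789.2 CPM of P2ry12 against 7857 and 9825 CPM in the other 2, and the part of this in these results was not tested.

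For reporter sdCAMs the tdT+ and tdT- counts of a mouse were summed, which gave 3 members higher (Mmp14, Mmp19 and Timp1) and 2 lower (Mmp9 and Timp2) of 10, beside 12.2% of all genes called (7.14% higher and 5.08% lower). In tdT- cells Mmp14 was 33.5, 35.96 and 62.04 CPM after PBS and 655, 647 and 867 CPM after LPS. In tdT+ cells it was 44.2, 67.8 and 105 CPM after PBS and 582, 345 and 663 CPM after LPS, and the sum differed by a log2 fold change of 3.33 (SE 0.41, adjusted p = 0.00042). Mmp9 fell in the sum by 2.83 on the log2 scale (SE 0.55, adjusted p = 0.0079), from 77.4, 164 and 128 CPM to 9.32, 27.5 and 1.33 CPM in tdT- cells and from 113, 129 and 209 CPM to 51.1, 5.21 and 31.8 CPM in tdT+ cells. This call was lost without the 2 libraries of conflicting index (adjusted p = 0.099) and without PBS mouse 177 (adjusted p = 0.051), and that on Mmp19 in 3 of the 6 fits without 1 mouse (adjusted p 0.054 to 0.056). Timp2 fell by 3.09 (SE 0.43, adjusted p = 0.00091), from 944 to 1233 CPM in the 6 PBS libraries to 87.1 to 287 CPM in the 6 LPS libraries.

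Fitted apart, tdT+ cells had 4 members higher after LPS (Mmp8, Mmp14, Mmp19 and Adam8) and Timp2 lower, beside 13.4% of all genes called (7.54% higher and 5.82% lower). The tdT- cells had 4 higher (Mmp8, Mmp14, Mmp19 and Timp1) and 2 lower (Mmp9 and Timp2), beside 26.5% (14.5% higher and 12% lower). Mmp9 was not called in tdT+ cells (-2.38, adjusted p = 0.054). The tdT+ response was not fitted without the LPS library of mouse 5, which held microglial markers. With the 2 libraries of conflicting index exchanged, 4 members were called in each, Mmp14, Adam8 and Timp2 in both, Mmp8 in tdT+ and Timp1 in tdT- cells. Mmp19 then passed in neither (adjusted p = 0.0685 in tdT+ and 0.078 in tdT- cells), nor did Mmp8 (0.11) and Mmp9 (0.071) in tdT- cells. Mmp8 after LPS was 125, 27.5 and 23.1 CPM in tdT- and 23.7, 8.03 and 17.6 CPM in tdT+ cells, against 4.32 CPM in 1 of the 6 PBS libraries and no count in the other 5. S100a8 was 570.8 to 2234 CPM in these tdT- and 8.313 to 47.4 CPM in these tdT+ libraries, and its part was not tested. These Mmp8 and S100a8 values are for the libraries as named.

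Timp1 in the reporter was less firm. It was 32.8, 316 and 36.5 CPM in tdT- and 18.8, 0.704 and 14.2 CPM in tdT+ cells after LPS, and the summed response (6.78, SE 2.0, adjusted p = 0.0481) was lost in each of the 6 fits without 1 mouse and when the 2 libraries with conflicting index labels were exchanged (adjusted p = 0.058) or left out (0.056), and with scaling to library totals (0.054). The low tdT+ value is from mouse 5, the library with 7994 CPM of microglial markers, and without that library 5 members were again called. No member passed the test of the difference between the responses of reporter sdCAMs and MG with edgeR (0 of 10, with 1.04% of all genes called and 1719 genes at an unadjusted p under 0.05). DESeq2 called 2, in opposite directions. By it the sdCAM response was above that of MG for Mmp14 (1.78, adjusted p = 0.037) and below it for Mmp13 (-5.76, adjusted p = 0.044). In reporter MG Mmp13 had no count after PBS and 0, 4 and 20 counts after LPS.

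Between tdT+ and tdT- sdCAMs 0 of 10 members were called after PBS (0.0236% of all genes) and 0 of 10 after LPS (10.6%) with edgeR, with 566 and 3097 genes at an unadjusted p under 0.05. After the exchange of the 2 libraries 0 genes at all were called after LPS, with 816 at an unadjusted p under 0.05, and without these 2 libraries 855 of 13317 were called. Without the tdT+ LPS library of mouse 5, 1038 of 13529 were called. Mmp14 differed by 0.72 (SE 0.38) after PBS and by -0.45 (SE 0.37) after LPS. Adam8 after PBS was 3.35, 11.7 and 6.35 CPM in tdT+ and 31.8, 26.2 and 25.0 CPM in tdT- cells, without overlap, at -1.957 (SE 0.63, unadjusted p = 0.0070, adjusted p = 0.78). With the libraries as named, Timp1 after LPS was at -3.56 in tdT+ against tdT- cells, also without overlap (SE 1.3, adjusted p = 0.10). Once the 2 libraries of conflicting index were exchanged, the Timp1 groups overlapped. Mmp9 after LPS was called higher in tdT+ cells with scaling to library totals alone (2.32, adjusted p = 0.023).

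**Figure D5:**
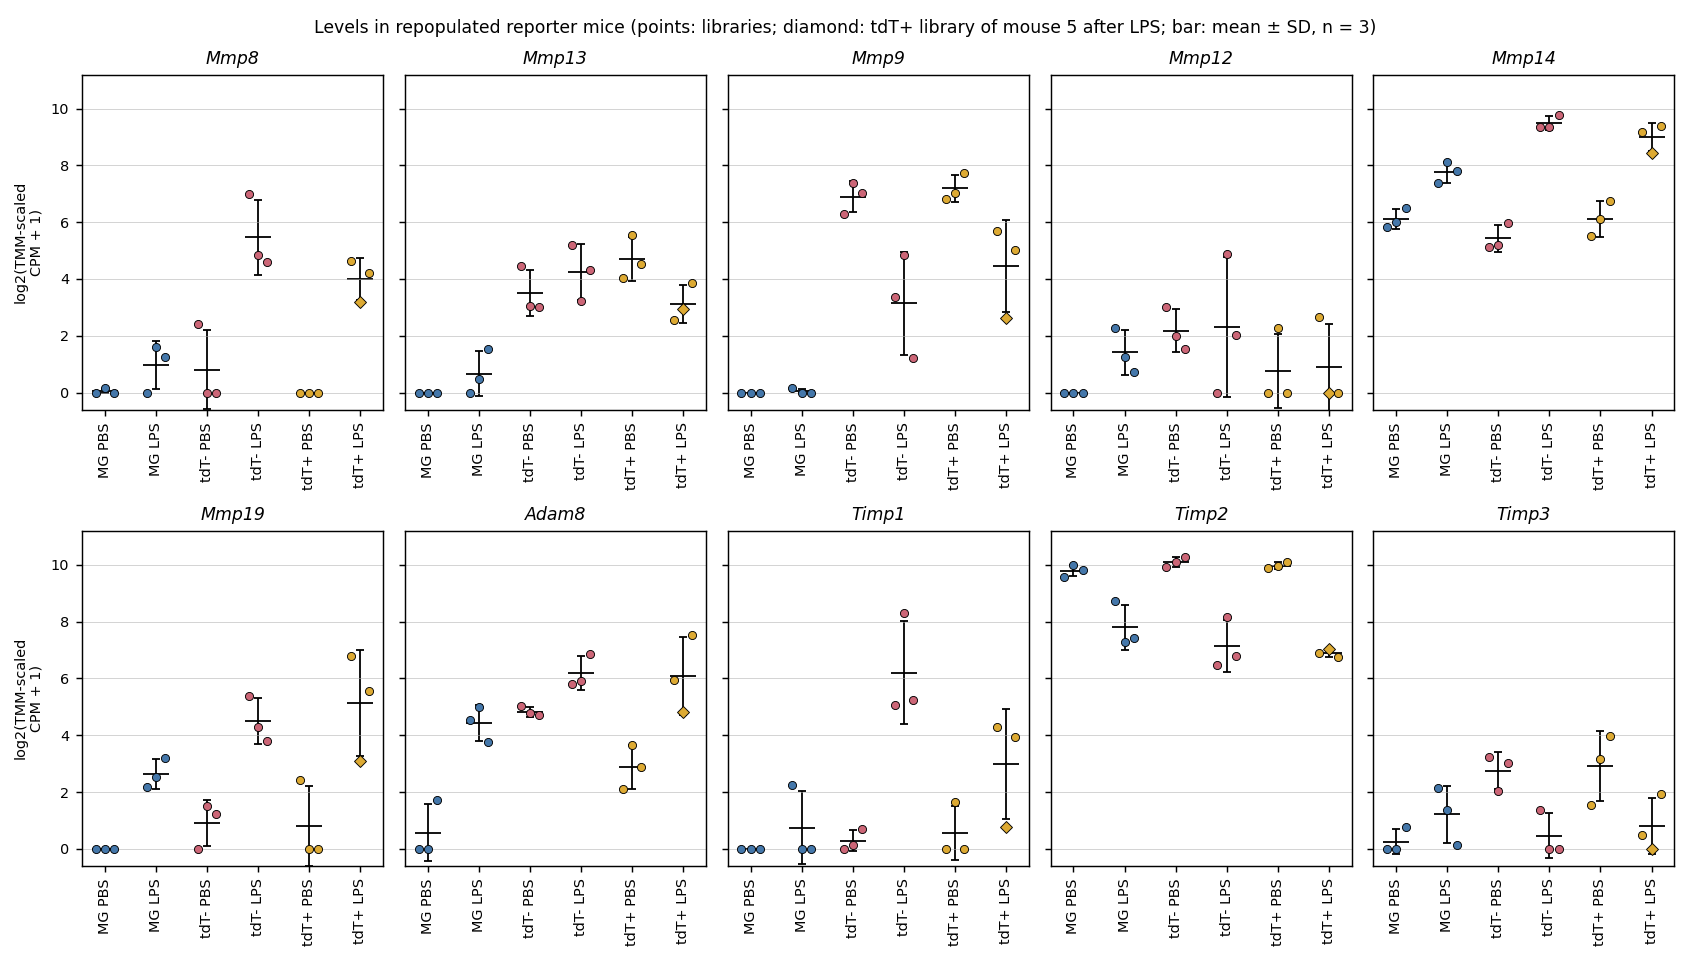
Level of each of the 10 genes in each library of reporter mice, as TMM-scaled CPM plus 1 on a log axis, for MG, tdT- sdCAMs and tdT+ sdCAMs after BLZ945 with PBS or LPS. Points are single libraries, 3 per group, and the short bars are group means. In both sdCAM populations Mmp14 lies at 33.5 to 105 CPM after PBS and 345 to 867 CPM after LPS, and Timp2 moves the opposite way.

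Whether the LPS response differed between WT and Ccr2-/- mice was tested directly. With edgeR 0 of 6 members passed in MG and 0 of 10 in sdCAMs, where 0% of all genes were called in both, with 503 and 1792 genes at an unadjusted p under 0.05. For Mmp14 in sdCAMs the difference was 1.89 (SE 0.52, adjusted p = 0.21), called with DESeq2 (1.72, adjusted p = 0.035), and for Timp2 it was -1.95 (SE 0.67, adjusted p = 0.23). The higher Mmp14 and lower Timp2 levels of Ccr2-/- sdCAMs after LPS are therefore not shown to differ from the WT response by edgeR, and WT sdCAM libraries differ from the others in depth and in the share of their top genes, which cannot be told apart from genotype here.

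Other genes of the system were counted from 4 lists, and names beyond the 2 with the smallest p in each direction of a list were added after their values had been seen. Of 17 further metalloproteinase genes, 6 were tested in WT MG and 5 were lower after LPS, with 0 higher (median log2 fold change -3.03, beside 0.02 over all genes). Ccr2-/- MG gave the same counts, 5 lower and 0 higher of 6 (median -2.66, beside 0.0029), and in both the 5 were Mmp2, Mmp11, Mmp15, Mmp23 and Mmp28. Mmp2, the gelatinase activated with MMP14, fell from 23.3 ± 3.1 to 5.03 ± 2.0 CPM in WT MG (adjusted p = 0.00018), and Mmp28 was at least 15.4-fold lower there. In Ccr2-/- sdCAMs 3 of 6 were higher and 0 lower (median 2.18 with bounds), namely Mmp3, Mmp25 and Mmp27, each at or below 1 count per library before LPS and at 2.52 to 8.28 CPM on average after it, with Mmp25 at least 24.8-fold higher. In WT sdCAMs 1 of the 17 was tested and 0 were called.

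Mmp13, Mmp12 and Mmp8 lie within 296.0 kb on chromosome 9 (7272514 to 7568485 on GRCm38), in a cluster that also holds Mmp1b, Mmp3, Mmp1a and Mmp10 and is followed by Mmp27, Mmp20 and Mmp7. Of these 10 genes 5 passed the filter in Ccr2-/- sdCAMs, and those 5 (Mmp13, Mmp12, Mmp8, Mmp3 and Mmp27) were called higher after LPS, beside 10.9% of all genes. Apart from Mmp13 they passed through their level after LPS and so had to differ. Mmp12 shares 157 exon bases with Mmp1b on the opposite strand, which had no count in the WT and Ccr2-/- libraries, and Adam8 shares 46 exon bases with Gm16201.

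The 9 further inhibitors of proteases had fewer calls. Serpine2, which blocks thrombin and plasminogen activators, fell in MG of both genotypes, from 854 ± 43 to 336 ± 40 CPM in WT (adjusted p = 6.2e-05) and from 1275 ± 30 to 475 ± 25 CPM in Ccr2-/- mice (adjusted p = 3.2e-06). A2m, a broad protease trap, was higher in WT MG. Among Ccr2-/- sdCAMs Cstb and Serpinb2 were higher and Cst3 lower of 8 tested (median 1.49 with bounds, beside -0.05), and in WT sdCAMs 0 of 3 tested were called.

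Of 19 further ADAM and ADAMTS genes, Adam9 and Adamts1 were the 2 higher in MG of both genotypes. Adam9, a sheddase, went from 52.9 ± 4.3 to 205 ± 59 CPM in WT MG (adjusted p = 5.3e-05) and from 71.3 ± 11 to 253 ± 15 CPM in Ccr2-/- MG (adjusted p = 1.1e-05), and Adam22 was lower in WT MG. In Ccr2-/- sdCAMs Adam9 rose from 342 ± 51 to 1218 ± 130 CPM (adjusted p = 0.00013), and 3 of 10 tested were lower, Adam15 (191 ± 20 to 81.7 ± 23 CPM), Adam33 and Adam19, which was at least 52.6-fold lower. In WT sdCAMs 0 of 9 were called, with a median of -1.13, beside -0.08 over all genes.

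Among 19 activators and partners Plaur, the receptor of urokinase, was higher after LPS in all 4 populations. Its level in WT MG went from 12.3 ± 1.7 to 115 ± 19 CPM (adjusted p = 4.9e-07) and in Ccr2-/- sdCAMs from 4.29 ± 2.1 to 138.5 ± 6.4 CPM (adjusted p = 5.2e-07). Lcn2, whose product binds MMP9, was also higher in all 4, and reached 11690 ± 4854 CPM in WT and 6573 ± 358 CPM in Ccr2-/- sdCAMs. In MG 3 of 12 were higher in each genotype, with Cd44 as the other gene, and 0 were lower. Of 13 tested in Ccr2-/- sdCAMs 4 were higher, with Cd44 and Thbs1 as the others, and 2 were lower, Lrp1 and Plau, the gene of urokinase itself, which was at least 82.5-fold lower. In WT sdCAMs 2 of 10 were higher and Lrp1, an endocytic receptor that clears protease complexes, was lower (489 ± 151 to 93.2 ± 22 CPM, adjusted p = 0.028). Medians of this list were 0.17 to 0.69 in the 4 populations, beside -0.08 to 0.02 over all genes.

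Genes with the most similar profile were sought among 10539 genes over the 12 WT and Ccr2-/- group means, as Pearson's r of log2(CPM + 1), which is a description of 12 groups that share mice, libraries and scaling. Mmp14 was closest to Susd2 (r = 0.984) and Snx10 (0.981), Timp1 to Mrap (0.994) and Saa1 (0.987), and Timp2 to Smim10l2a (0.963). Mmp9 was closest to Fcna (0.996) and Serpinb8 (0.994), Mmp13 to Gm6377 (0.986) and Serping1 (0.985), and Adam8 to Xdh (0.988) and Fpr1 (0.975). For Mmp19 these were Glrx (0.974) and Dtx2 (0.969), and for Mmp8 Tnip3 (0.970) and Glipr2 (0.970). Mmp12 had lower values, with Vcan (0.897) and Gpr31b (0.867), and Timp3 never reached a group mean of 10 CPM.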

How the data were processed

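The authors sorted MG and sdCAMs, made cDNA with the SMARTer Ultra Low Input kit and Nextera XT libraries without molecular identifiers, sequenced single 50-base reads, and deposited 3 tables of whole-number counts per gene symbol. Per the labels, their processing used bcl2fastq 2.20, STAR 2.7.11a, featureCounts 2.0.8 and DESeq2 1.46.0, with the genome build depending on the date of the experiment. The strand setting of counting is not given in the sources used here. Counts were tested with the quasi-likelihood test of edgeR 4.0.16 (R 4.3.3; filterByExpr, TMM, two-sided, Benjamini-Hochberg over all genes tested), and calls needed an adjusted p under 0.05 with a change over 1 on the log2 scale. SE is the log2 fold change divided by the root of F. Levels are TMM-scaled CPM from one scaling of all 54 libraries, and per-kb values divide by the union of GENCODE exons. A group without counts was set to 3 counts per library to give a bound on a fold. Such bounds rest on that limit of counts only and take no account of the spread between mice.

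MG and sdCAMs of a mouse are paired by design. Over 30 pairs the deviations from group means correlated at -0.024 to 0.16, over 0.1 in 4, so the mouse was used as a replicate block only as an alternative. All 10 members were named whatever their result. Members, lists and tests were chosen with earlier results of these data known. Alternatives were scaling, filter, DESeq2 1.42.0, the block, the label IEG_correction as covariate, exchanged or omitted libraries and leaving out each library, and scaling to library totals, the sum without 1 tdT+ library and the Mmp14 to Timp2 ratio were added after seeing the data. The label IEG_correction runs partly with treatment, cell type and genotype and cannot be fully told apart from them. Tests were checked on simulated data. The NF-kB motif was widened after a narrower form, with which no window of a member matched either, had been searched. Of the genes named by these rules, 2 are not reported here.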

Additional observations from a re-analysis of the deposited data

Results flagged for a closer look

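The LPS response differed between sdCAMs and MG, by the interaction term in edgeR's quasi-likelihood test with Benjamini-Hochberg adjustment, for 4 results on the members. In WT mice Mmp19 differed by 8.61 on the log2 scale (adjusted p = 0.0015), in favour of sdCAMs, and the size depends on the value given to the 3 untreated sdCAM libraries without a count. In Ccr2-/- mice Mmp14 rose more in sdCAMs by 3.35 (adjusted p = 2.7e-05, 3 of 3 sdCAM LPS libraries above every MG LPS library), and Timp2 fell more in sdCAMs (-1.08, adjusted p = 0.0058). Mmp12 in Ccr2-/- mice differed by 8.75 (adjusted p = 0.0319), again against untreated sdCAMs without a count, and this call was lost in 7 of the 12 fits that left out 1 library, with adjusted p of 0.065 to 0.082.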

How the results depend on the processing

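Under other settings 305 of 325 values on called members kept their call and 20 lost it, and of 725 on members not called 42 gained a call and 1 was called with the other sign (Timp2 in WT sdCAMs against MG after LPS, 0.52 and -1.33 with library totals). With 1 library left out, 316 of 378 kept a call, 62 lost it and 14 of 990 gained one. No called member changed sign in these fits, while 47 and 81 values called in neither fit did. The cause of these changes was not tested. With DESeq2, the number of members called was 3 instead of 1 for the WT difference between responses, 2 instead of 0 for the reporter difference and 1 instead of 0 for the genotype difference in sdCAMs. The WT number includes Timp1, whose difference cannot be estimated, and the 2 reporter calls were of opposite direction. Without a filter it was 2 for the WT difference, 5 instead of 3 for the Ccr2-/- difference, 8 instead of 5 for reporter MG, 1 instead of 0 for BLZ945 in Ccr2-/- sdCAMs, for the reporter difference, for tdT+ against tdT- after LPS and for the genotype difference in sdCAMs, and 2 instead of 0 for tdT+ against tdT- after PBS. With library totals it was 2 for the WT difference and 1 for tdT+ against tdT- after LPS. With the IEG_correction mark as covariate it was 2 instead of 4 for WT sdCAMs against MG after LPS, and without the 2 libraries of conflicting index 3 instead of 5 for reporter sdCAMs.

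With 1 library left out, members called ranged from 3 to 4 for LPS in WT sdCAMs, 0 to 1 for BLZ945 in WT sdCAMs (1 without BLZ945 mouse 12), 1 to 2 for the WT difference, 4 to 7 for WT sdCAMs against MG after LPS (7 without the MG library of mouse 1), 1 to 4 for reporter MG, 2 to 5 for reporter sdCAMs and 0 to 1 for the reporter difference.

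Calls over all genes moved by over 1.5 times. LPS in WT sdCAMs gave 664 (137 to 2886 over the alternatives), the WT difference 174 (46 to 2708), WT sdCAMs against MG 2242 untreated (960 to 3078) and 4651 after LPS (1092 to 7976). Reporter MG gave 683 (304 to 1602), reporter sdCAMs 1558 (674 to 2539), their difference 133 (0 to 732), and tdT+ against tdT- 3 after PBS (0 to 105) and 1352 after LPS (0 to 3829). BLZ945 gave 9 (0 to 108) and 0 (0 to 788) in WT MG and sdCAMs and 2 (0 to 70) and 0 (0 to 145) in Ccr2-/- ones, and the genotype difference 0 (0 to 31) in MG and 0 (0 to 622) in sdCAMs.

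With the mouse as a replicate block Mmp14 in WT sdCAMs against MG after LPS was called (1.09, adjusted p = 0.0288), and no other call on a member changed. Depth limits the WT sdCAM libraries, where 3 counts correspond to 0.9214 to 3.496 CPM, against 0.2302 to 0.391 CPM in WT MG and in Ccr2-/- libraries.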
